A study of Mus musculus with 9 samples.

Results

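A set of 9 long noncoding RNA (lncRNA) loci that lie within 10 kb of genes of the endoplasmic reticulum (ER) stress response and the integrated stress response was followed in β-TC6 cells. The loci were listed by identifier and taken from a deposited lncRNA table by that list. They are 9 of the 9635 loci in the table and hold 13 of its 15589 transcripts, and all 13 transcripts had a count above 0 in at least 1 library. β-TC6 is an insulin-producing mouse line from an insulinoma that arose in transgenic mice, so each group is the same tumour-derived line and no primary islet is included. The groups were cells given stearic acid (3 libraries), cells given palmitic acid (3 libraries) and untreated control cells (3 libraries). Both acids were used at 400 µmol/L with 1.3% bovine serum albumin (BSA), and RNA was taken after 24 h. No source used here says if the control cells received the albumin. The labels do not say whether the 3 libraries of a group came from separate cultures, so the p-values measure the spread between these samples, which may be technical.

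Stearic and palmitic acid are saturated fatty acids that differ in the length of their carbon chain, and both are known to load the ER of β cells. Unfolded protein in the ER is sensed by membrane proteins, among them the kinase and ribonuclease encoded by Ern1, and the response raises chaperones and degradation factors such as Hsp90b1, Herpud1 and Manf. The integrated stress response slows general translation while Atf4 protein is made, and Atf4, with partners such as the product of Cebpb, switches on genes that include Chac1, Sesn2 and Vldlr. The table holds lncRNAs and no coding genes, so none of these stress genes was itself measured here.

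The loci sit in different ways beside their stress genes (GRCm38, the coordinate system of mm10). XLOC_022034 (chr11:106387183-106394145, plus strand) lies on the opposite strand from Ern1 and runs towards it, ending 505 bases from its 3′ end, and the table classes it as antisense to Icam2. XLOC_054582 (chr15:80200630-80256877, minus strand) runs antisense over Mief1 and over 1694 bases of Atf4. XLOC_084450 (chr2:167691177-167729172, plus strand) is the known lncRNA A530013C23Rik and starts 759 bases downstream of Cebpb on the same strand. XLOC_083832 (chr2:119355543-119357348, plus strand) is intergenic, 1162 bases downstream of Chac1 on the same strand. XLOC_106359 (chr4:132511866-132516791, minus strand) is intergenic and ends 1365 bases upstream of the start of Sesn2, on the same strand. XLOC_079291 (chr19:27249317-27249637, minus strand) is a 321-base antisense locus wholly inside Vldlr. XLOC_013242 (chr10:86657465-86686657, minus strand) is intergenic, 3552 bases downstream of Hsp90b1 on the same strand. XLOC_144692 (chr8:94379237-94387555, minus strand), listed with Gm15890, is antisense to 1118 bases at the 5′ end of Herpud1. XLOC_151979 (chr9:106892171-106895182, plus strand), listed with 4930524O07Rik, starts 192 bases from the start of Manf and runs away from it. The RNA libraries were made with a directional kit, but no source used here gives the strand setting of the counting. If strand was ignored, reads of the 5 antisense loci and of genes that overlap them on the other strand cannot be told apart.

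**Figure D1:**
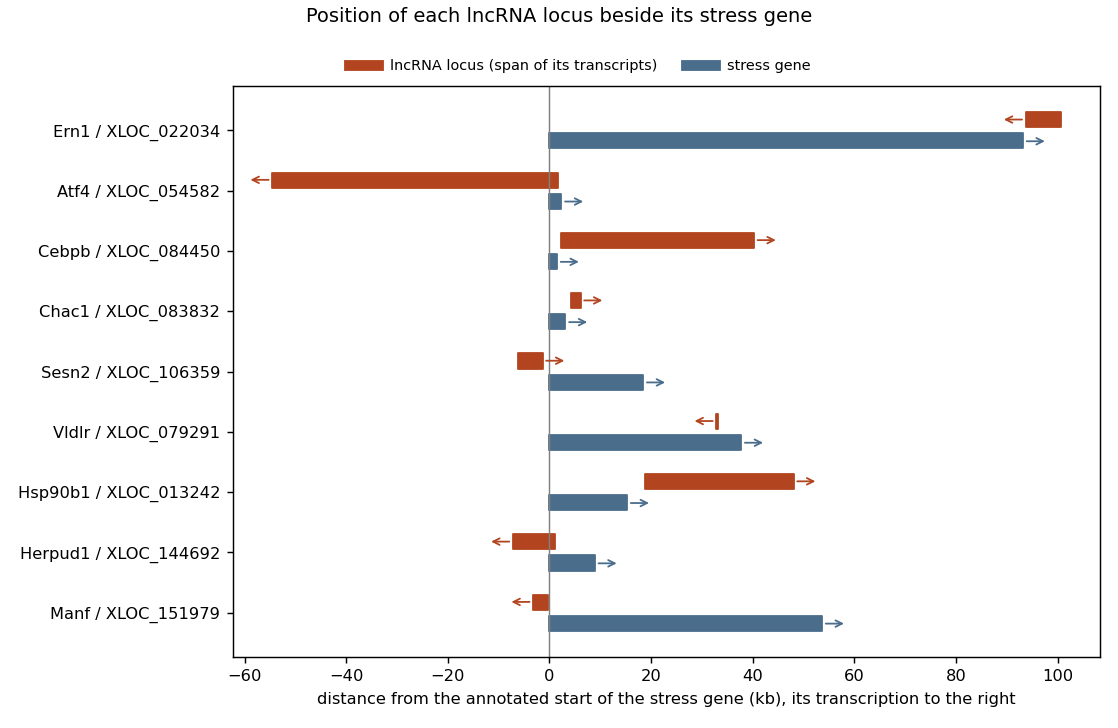
Position of each of the 9 lncRNA loci (orange bars) relative to the annotated start of its stress gene (blue bars), in kb, with each stress gene drawn so that it is transcribed to the right and arrows giving the direction of transcription. The loci near Atf4, Vldlr and Herpud1 overlap their stress gene, and the locus near Manf starts beside the start of Manf and runs the other way.

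The stretches around the starts of the stress genes (250 bases before to 50 after) were read from the RefSeq promoter table for GRCm38.p6, which matched 8 of the 9 stress genes. Manf was not matched. Motifs of the 2 responses were searched on both strands: the ER stress response element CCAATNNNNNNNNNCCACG, its part CCACG alone, the core of the unfolded protein response element TGACGTG, and the core of the composite site bound by Atf4, TGATGNAA. Every match to the ER stress response element also counts as a CCACG match. The windows shown are those of 3 of the 4 stress genes that hold a longer motif, and that of A530013C23Rik, the locus among the 9 with its own entry, whose window (the second of 2 in the table) has its start at the first base of XLOC_084450. Capitals mark matches on either strand.
Hsp90b1 chr10:86705395-86705694, minus strand: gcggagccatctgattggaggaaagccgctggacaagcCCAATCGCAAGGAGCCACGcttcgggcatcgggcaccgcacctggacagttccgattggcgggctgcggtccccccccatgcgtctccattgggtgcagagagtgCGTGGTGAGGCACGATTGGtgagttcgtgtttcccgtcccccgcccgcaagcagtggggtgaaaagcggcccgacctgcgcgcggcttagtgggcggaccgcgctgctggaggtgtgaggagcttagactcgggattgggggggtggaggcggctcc
Chac1 chr2:119350992-119351291, plus strand: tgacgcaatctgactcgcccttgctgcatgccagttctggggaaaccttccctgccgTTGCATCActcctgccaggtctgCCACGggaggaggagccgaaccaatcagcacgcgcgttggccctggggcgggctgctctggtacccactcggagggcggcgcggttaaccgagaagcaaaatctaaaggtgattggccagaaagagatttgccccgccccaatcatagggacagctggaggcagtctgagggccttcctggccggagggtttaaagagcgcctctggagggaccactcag
Herpud1 chr8:94386179-94386478, plus strand: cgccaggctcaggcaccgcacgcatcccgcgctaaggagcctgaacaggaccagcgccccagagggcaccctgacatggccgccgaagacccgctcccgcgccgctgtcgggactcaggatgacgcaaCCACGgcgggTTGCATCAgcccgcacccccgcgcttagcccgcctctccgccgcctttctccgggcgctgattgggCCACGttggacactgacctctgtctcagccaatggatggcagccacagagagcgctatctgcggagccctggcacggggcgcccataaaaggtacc
A530013C23Rik chr2:167690927-167691226, plus strand: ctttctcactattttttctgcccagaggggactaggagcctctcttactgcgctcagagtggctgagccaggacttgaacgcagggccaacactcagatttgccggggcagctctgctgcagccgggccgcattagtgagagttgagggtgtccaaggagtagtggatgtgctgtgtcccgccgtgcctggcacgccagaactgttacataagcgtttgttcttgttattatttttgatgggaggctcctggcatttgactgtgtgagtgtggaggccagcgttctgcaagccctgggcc

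The Hsp90b1 window held the ER stress response element at 2 positions, from -212 to -194 on the gene's strand and from -107 to -89 on the other, counted from the start. In the form searched, the element was in 1 of the 8 stress genes and in 0.119% of all 32851 promoters of the table. Other arrangements or spacings of its parts were not searched, so the other windows may hold them. The Atf4 composite core was found on the opposite strand in Chac1 (-193 to -186), in Herpud1 (-112 to -105) and in the second of 2 Vldlr windows (-200 to -193), which makes 3 of 8 genes, beside 3.97% of all promoters. CCACG alone was in 7 of the 8 genes and in 32.8% of all promoters. The unfolded protein response core was in 0 of 8, beside 2.01% of all promoters. The A530013C23Rik window shown held none of these letters, which says nothing of which factors act there. Its first window, not shown, held CCACG at -93 to -89. These matches describe the letters in each window and no binding was measured.

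Library totals, which count lncRNAs alone, ran between 1537431 (stearic acid replicate 2) and 2870275 (control replicate 3). Levels are given as CPM, counts scaled to the library total after TMM scaling, on which 3 counts equal 1.10 to 2.01 CPM over the 9 libraries. One transcript took 16.4% to 28.7% of each library, most in stearic acid replicate 2, and that library also lay apart from the others on the second principal component (-26.27, beside -4.46 to 11.14). Coding markers of β cells could not be checked. The 17 lncRNA loci within 10 kb of 12 of 13 β-cell genes summed to 7240 to 8297 CPM in stearic acid, 8696 to 9546 CPM in palmitic acid and 12860 to 13684 CPM in control libraries. The 3 loci near α-cell genes summed to 90.5 to 99.4 CPM, 85.4 to 101 CPM and 67.2 to 71.6 CPM in the same order of groups, the locus near a macrophage gene had 63.7 to 223 CPM, 145 to 200.4 CPM and 95.8 to 316 CPM, those near fibroblast genes stayed at or under 7.80 CPM, and the acinar one was at 0. No locus lay near the listed δ-cell and endothelial genes. Since the RNA is from whole cultures, fewer cells of a state and less RNA per cell cannot be told apart, and the part of these sums in the results was not tested.

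Set against control cells, none of the 9 loci passed the test with either acid. Calls required an adjusted p (Benjamini-Hochberg) under 0.05 in edgeR's quasi-likelihood test over the 3039 loci that passed the filter on low counts, the 9 among them. With stearic acid 0 of 9 were called, beside 11.8% of all loci tested, and 3 of 9 had an unadjusted p under 0.05 (beside 25.1% of all loci), all 3 in the higher direction (beside 13.4%). Among these 3, the locus near Vldlr passed the filter through its stearic acid libraries alone, so the count supports nothing. Those near Ern1 and Atf4 passed it in all 9 libraries. With palmitic acid 0 of 9 were called, beside 5.56% of all loci tested, and 0 of 9 had an unadjusted p under 0.05 (beside 19.7%, and 11% in the higher direction). DESeq2 also called 0 of 9 in both, with unadjusted p under 0.05 for 2 loci with stearic acid and 0 with palmitic acid. The 2 comparisons share the control libraries. The levels in each library, in CPM, are described below by the role of the stress gene.

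**Figure D2:**
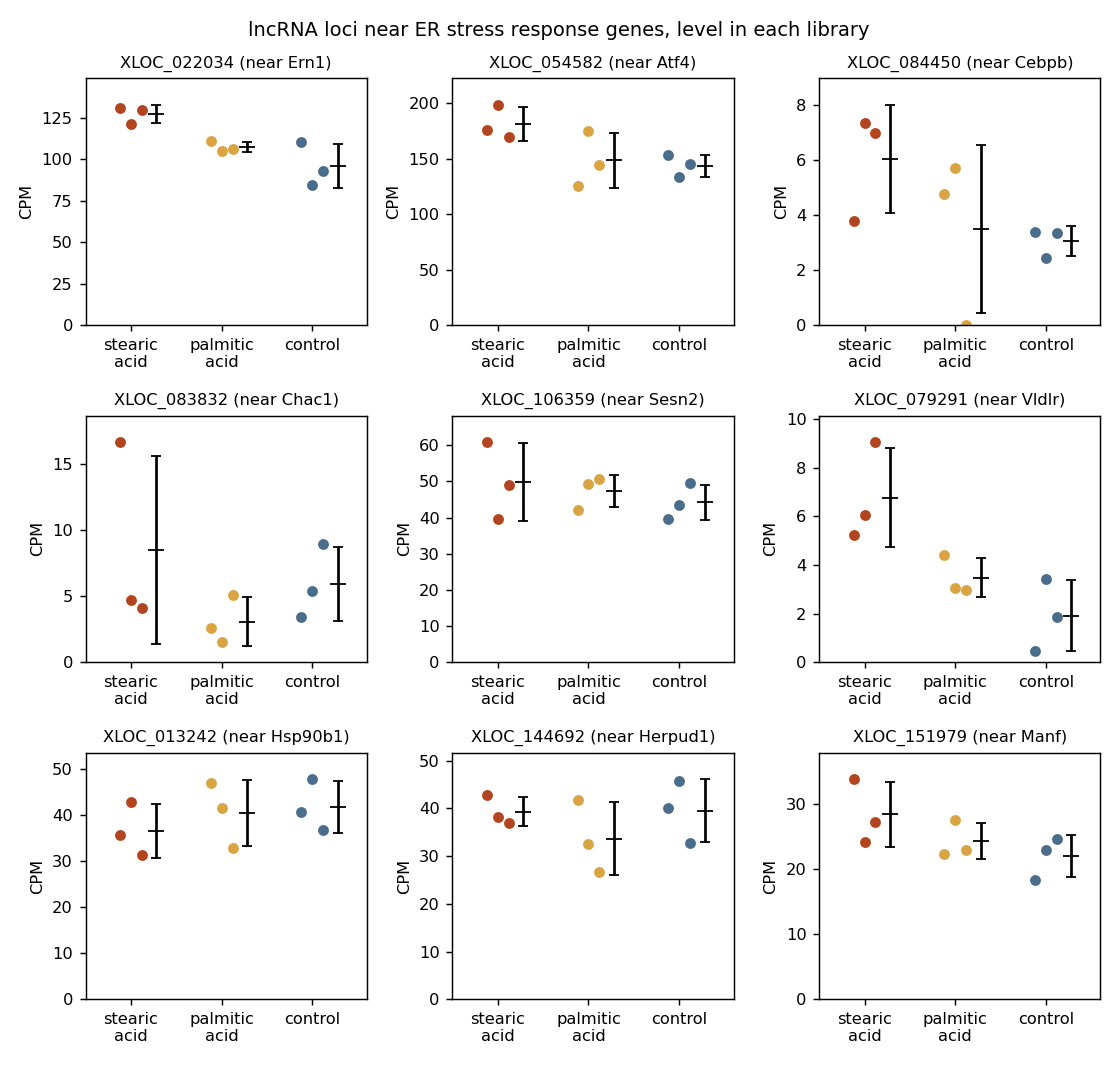
Level of each of the 9 loci in CPM (vertical axes, all from 0) in each stearic acid, palmitic acid and control library. Points are single libraries and the bars beside them are the mean and SD of 3. In the panels for Ern1, Atf4, Cebpb and Vldlr the 3 stearic acid points lie above the 3 control points, and in no panel do the palmitic acid points separate from the control points.

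Ern1 encodes the sensor that splices Xbp1 mRNA. Its neighbour XLOC_022034, a single transcript of 3 exons, had 131, 121 and 130.1 CPM in stearic acid libraries, 111, 105 and 106 CPM in palmitic acid libraries, and 110.3, 84.3 and 93.3 CPM in control libraries. The stearic acid libraries were higher than all libraries of the other groups, while palmitic acid and control libraries overlapped. The mean was 128 ± 5.4 CPM with stearic acid, 107 ± 3.2 CPM with palmitic acid and 95.9 ± 13.2 CPM in control cells (SD, n = 3 each). Against control, the log2 difference was 0.41 (SE 0.15, 95% confidence interval 0.10 to 0.72) with stearic acid, a fold of 1.33, with an adjusted p of 0.078 in edgeR. With palmitic acid it was 0.16 (SE 0.15, interval -0.15 to 0.47, adjusted p = 0.6 in edgeR). Between stearic and palmitic acid the log2 difference was 0.25 (SE 0.15, interval -0.06 to 0.56, adjusted p = 0.716 in edgeR). The standard errors of this locus were the smallest of the 9, and its intervals leave room for a fold of at most 1.65 with stearic acid and 1.39 with palmitic acid.

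Atf4 encodes the transcription factor at the centre of the integrated stress response. XLOC_054582, which crosses it antisense and has 3 exons in one transcript, had 175, 198 and 169 CPM in stearic acid libraries, 126, 175 and 144 CPM in palmitic acid libraries, and 153, 133 and 145 CPM in control libraries. The stearic acid libraries lay above all control libraries and overlapped the palmitic acid ones. The log2 difference from control was 0.33 (SE 0.15, interval 0.02 to 0.64) with stearic acid and did not pass after adjustment (adjusted p = 0.173 in edgeR). With palmitic acid it was 0.05 (SE 0.15, interval -0.27 to 0.36, adjusted p = 0.908 in edgeR). Since the span of the locus crosses the Atf4 gene, the strand of its reads may matter here, and it was not tested. Whether its exons overlap those of Atf4 was not determined.

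Cebpb encodes a transcription factor of the C/EBP family that pairs with Atf4. Its downstream neighbour XLOC_084450 (A530013C23Rik), whose start is in the last window printed above, was at the edge of detection with 3.80, 7.37 and 7.00 CPM in stearic acid libraries, 4.76, 5.73 and 0 CPM in palmitic acid libraries, and 3.38, 2.44 and 3.34 CPM in control libraries. In counts these were 8, 11 and 17 with stearic acid, 13, 15 and 0 with palmitic acid, and 7, 5 and 9 in control cells. All 3 stearic acid libraries exceeded all control libraries, and the palmitic acid libraries ran from below both to within the stearic acid range. The count of 0 in palmitic acid replicate 3 allows up to 1.27 CPM. The log2 difference from control was 0.96 with stearic acid (SE 0.75, interval -0.58 to 2.50, adjusted p = 0.468 in edgeR) and 0.21 with palmitic acid (SE 0.76, interval -1.36 to 1.77, adjusted p = 0.914 in edgeR). The longer of its transcripts, TCONS_00142453 with 4 exons, had 4, 1 and 5 counts with stearic acid, 3, 0 and 0 counts with palmitic acid and 0 counts in all 3 control libraries. It did not pass the filter and was not tested.

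Chac1, Sesn2 and Vldlr are targets of the integrated stress response. Chac1 encodes an enzyme that degrades glutathione, and its neighbour XLOC_083832 had 16.6, 4.69 and 4.12 CPM in stearic acid libraries, 2.56, 1.53 and 5.10 CPM in palmitic acid libraries, and 3.38, 5.36 and 8.92 CPM in control libraries. The 3 groups overlapped with and without stearic acid replicate 1, the library that was above all others. The log2 difference from control was 0.51 with stearic acid (SE 0.60, interval -0.72 to 1.75, adjusted p = 0.666 in edgeR) and -0.97 with palmitic acid (SE 0.64, interval -2.30 to 0.36, adjusted p = 0.442 in edgeR). Without stearic acid replicate 1 the stearic acid difference was -0.45.

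Sesn2 encodes sestrin, a leucine sensor that restrains growth signalling. The locus upstream of it, XLOC_106359, ranged over 39.5 to 60.9 CPM in stearic acid, 42.1 to 50.6 CPM in palmitic acid and 39.7 to 49.4 CPM in control libraries. The groups overlapped. The log2 difference from control was 0.18 with stearic acid (SE 0.19, interval -0.22 to 0.58, adjusted p = 0.635 in edgeR) and 0.09 with palmitic acid (SE 0.19, interval -0.30 to 0.49, adjusted p = 0.845 in edgeR). Its transcripts share the same ends and have 2 exons each. The minor one, TCONS_00184600, made up 16.7 ± 5.9% of the counts of the locus with stearic acid, 15.5 ± 6.7% with palmitic acid and 13.5 ± 17.9% in control cells, where it ran between 0 and 33.8%. A second locus near Sesn2, XLOC_104686, had at most 2.93 CPM and was not tested.

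Vldlr encodes a lipoprotein receptor. The short antisense locus inside it, XLOC_079291, had 5.23, 6.03 and 9.05 CPM in stearic acid libraries, 4.40, 3.05 and 2.98 CPM in palmitic acid libraries, and 0.484, 3.41 and 1.86 CPM in control libraries. These are 11, 9 and 22 counts with stearic acid, 12, 8 and 7 counts with palmitic acid, and 1, 7 and 5 counts in control cells. The stearic acid libraries lay above all others, and the palmitic acid libraries overlapped the control ones. The log2 difference between stearic acid and control was 1.81 (SE 0.68, interval 0.40 to 3.21), a fold of 3.50 with an interval of 1.32 to 9.28, and its adjusted p was 0.0888 in edgeR. With palmitic acid it was 0.85 (SE 0.70, interval -0.60 to 2.30, adjusted p = 0.555 in edgeR). The locus passed the filter through the stearic acid libraries alone: the minimum of 4.13 CPM was reached in 3 stearic acid, 1 palmitic acid and 0 control libraries. Leaving out 1 library at a time moved the stearic acid value between 1.38 and 2.42, the lowest without control replicate 1 and the highest without control replicate 2, and the palmitic acid value between 0.42 and 1.47.

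Hsp90b1, Herpud1 and Manf belong to the folding and degradation arm. Hsp90b1 encodes an ER chaperone of the Hsp90 family, and XLOC_013242 downstream of it ranged over 31.3 to 42.9 CPM in stearic acid, 32.7 to 46.9 CPM in palmitic acid and 36.8 to 47.8 CPM in control libraries. Its log2 differences were -0.20 with stearic acid (SE 0.21, interval -0.63 to 0.24, adjusted p = 0.625 in edgeR) and -0.04 with palmitic acid (SE 0.20, interval -0.46 to 0.38, adjusted p = 0.946 in edgeR) against control, and -0.16 between the acids. The groups overlapped in each, and the palmitic acid value was above 0 without control replicate 2 (0.07) and without palmitic acid replicate 3 (0.09). The window of Hsp90b1 was also the one with the ER stress response element in the form searched, shown above.

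Herpud1 encodes a membrane protein of ER-associated degradation. XLOC_144692, antisense to its first part, had 37.0 to 42.8 CPM in stearic acid, 26.8 to 41.8 CPM in palmitic acid and 32.7 to 45.8 CPM in control libraries. The means of stearic acid and control libraries were close, at 39.3 ± 3.0 CPM with stearic acid and 39.6 ± 6.6 CPM in control cells (SD, n = 3 each), with a log2 difference whose interval ran from -0.45 to 0.44 (adjusted p = 0.998 in edgeR). With palmitic acid the log2 difference from control was -0.22 (SE 0.21, interval -0.66 to 0.22, adjusted p = 0.621 in edgeR). Nearly all counts came from TCONS_00252792, which lies inside the Herpud1 gene, and the second transcript, TCONS_00252791, had at most 5.16 counts. A second locus near Herpud1, XLOC_143674, was at 0 in all 9 libraries.

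Manf encodes a secreted protein that ER stress releases from β cells. XLOC_151979, which starts beside it, had 33.8, 24.1 and 27.2 CPM in stearic acid libraries, 22.4, 27.5 and 23.0 CPM in palmitic acid libraries, and 18.4, 22.9 and 24.5 CPM in control libraries. The groups overlapped. The log2 difference from control was 0.37 with stearic acid (SE 0.24, interval -0.13 to 0.88, adjusted p = 0.373 in edgeR) and 0.14 with palmitic acid (SE 0.24, interval -0.36 to 0.64, adjusted p = 0.812 in edgeR). Of its 2 transcripts TCONS_00262878 had 1 count in 1 stearic acid library, and the other carried the rest.

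**Figure D3:**
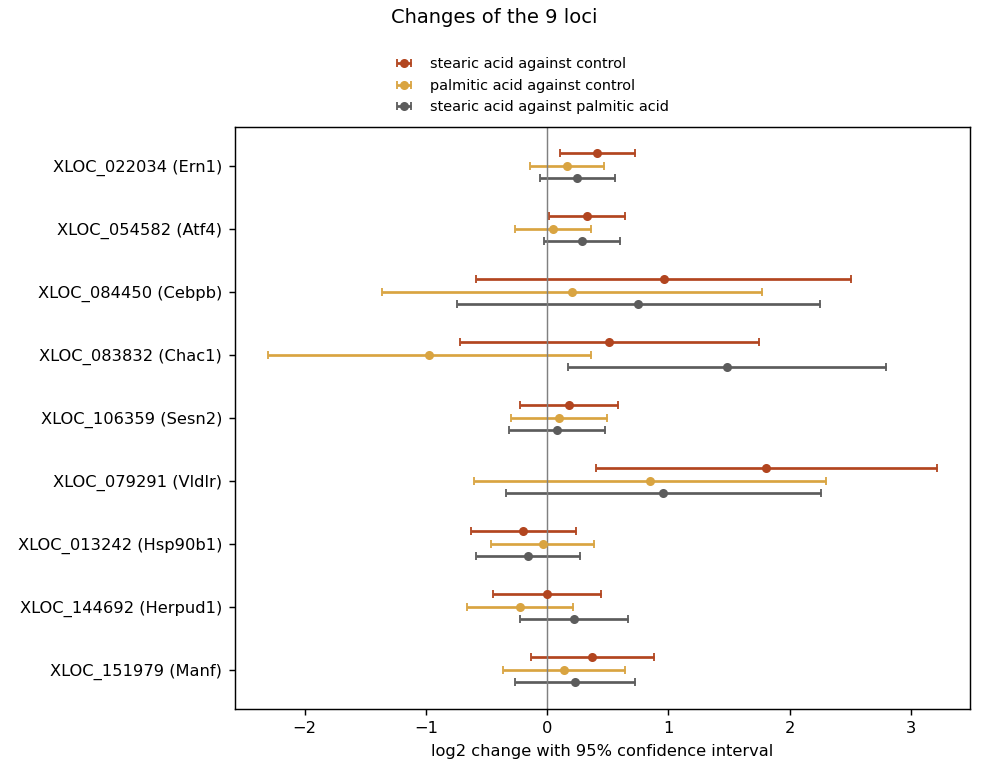
Log2 difference of each locus (horizontal axis) for each acid against control and for stearic acid over palmitic acid, with the 95% confidence interval from the fit, rows ordered by the role of the stress gene. Intervals of the loci near Cebpb, Chac1 and Vldlr are the widest, and none of the differences passed after adjustment over 3039 loci.

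Over the 9 loci, the log2 difference from control was above 0 for 7 and below 0 for 2 with stearic acid, with a median of 0.37, beside a median of 0.01 over all 3039 loci. With palmitic acid it was above 0 for 6 and below 0 for 3, with a median of 0.09, beside -0.02 over all loci. The loci near Cebpb and Vldlr are above 0 in both comparisons and passed the filter through libraries where they were high. These counts and medians therefore support nothing. The 3 libraries of stearic acid lay wholly above the 3 of control for 4 of 9 loci, those near Ern1, Atf4, Cebpb and Vldlr, beside 15% of all loci tested, and wholly below for 0, beside 14.3%. Of these 4, the loci near Cebpb and Vldlr reached the filter's minimum in 0 control libraries, so they passed through libraries where they were high and the count supports nothing. Those near Ern1 and Atf4 passed it in all 9 libraries. With palmitic acid the groups overlapped for all 9, beside 14.1% of all loci wholly above and 12.8% wholly below. Without stearic acid replicate 2, the library that lay apart, 0 of 9 were again called. The log2 differences from control were then 0.44, 0.25, 0.81 and 1.87 for the loci near Ern1, Atf4, Cebpb and Vldlr. These 4 were picked for stearic acid libraries wholly above control, so values above 0 were fixed by that choice and support nothing. These counts are a description of the 9 loci, and no locus among them passed.

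Set against each other at the same dose and time, the acids differed in none of the 9 loci after adjustment: 0 of 9 were called, beside 0.0987% of all loci tested, which is 3 of 3039. The log2 difference between stearic and palmitic acid was above 0 for 8 loci and below 0 for 1, with a median of 0.25, beside 0.01 over all loci. Of the 9, the loci near Ern1 and Vldlr had stearic acid libraries wholly above palmitic acid libraries, beside 6.84% of all loci, and 0 of 9 had them wholly below, beside 6.35%. The Vldlr locus, also among the 8, passed the filter through its stearic acid libraries. These counts and the median therefore support nothing either. For XLOC_079291 near Vldlr the log2 difference was 0.96 (SE 0.63, interval -0.34 to 2.25, adjusted p = 0.776 in edgeR). For XLOC_054582 over Atf4 it was 0.28 (interval -0.03 to 0.60, adjusted p = 0.682 in edgeR), with overlapping groups. XLOC_083832 near Chac1 alone had an unadjusted p under 0.05, beside 7.37% of all loci (3.49% in the higher direction). Its difference was 1.48 (SE 0.63, interval 0.17 to 2.80, adjusted p = 0.637 in edgeR), and without stearic acid replicate 1 it was 0.52. DESeq2 called 0 of 9 here too, with 1 at an unadjusted p under 0.05. A miss of the threshold does not show that the acids act alike: for the low loci near Cebpb, Chac1 and Vldlr the intervals reach beyond a log2 difference of 2.

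The same held for single transcripts. Of the 13 transcripts 10 passed the filter, and in the fit over 4426 transcripts 0 of 10 were called with stearic acid (beside 1.42% of all transcripts tested), 0 with palmitic acid (beside 0.407%) and 0 between the acids (beside 0%). At an unadjusted p under 0.05 there were 2 with stearic acid (beside 15.3%), 0 with palmitic acid (beside 11.2%) and 0 between the acids (beside 4.88%). The 2 were TCONS_00039944 near Ern1 and TCONS_00131489, the only transcript of the Vldlr locus. The latter passed the filter through its stearic acid libraries, so the count of 2 supports nothing. The lowest adjusted p with stearic acid was 0.189 in edgeR, for TCONS_00039944 near Ern1. The authors' deposited tables of changed transcripts, with 189 for stearic acid and 81 for palmitic acid (each against control) and 17 between the acids, listed 0 of the 13.

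Levels were compared between loci per length, as the authors' FPKM (fragments per kilobase of transcript, scaled to the library), summed over the transcripts of a locus. XLOC_054582 over Atf4 stood highest in each group, with 216 ± 14.5 FPKM with stearic acid, 168 ± 25.4 FPKM with palmitic acid and 171 ± 28.2 FPKM in control cells (SD, n = 3 each), and XLOC_084450 near Cebpb stood lowest, with 2.42 ± 0.80, 1.41 ± 1.25 and 1.33 ± 0.31 FPKM in the same groups. In control cells the order between them was Herpud1 (59.9 FPKM), Manf (26.5 FPKM), Vldlr (20.7 FPKM), Ern1 (19.2 FPKM), Sesn2 (13.2 FPKM), Hsp90b1 (4.43 FPKM) and Chac1 (4.05 FPKM), by the stress gene beside each locus. Neighbours in that order overlapped between libraries for Manf and Vldlr, for Vldlr and Ern1, and for Hsp90b1 and Chac1. With stearic acid the Vldlr locus stood second, at 80.4 ± 22.2 FPKM, and overlapped the Herpud1 locus at 59.5 ± 8.3 FPKM. With palmitic acid it stood behind the Herpud1 locus, at 39.8 ± 10.7 FPKM, and again overlapped it, at 48.4 ± 12.5 FPKM. These FPKM of the Vldlr locus rest on the small counts given above and a span of 321 bases, so they are high for few reads.

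A list of 96 symbols for genes of both responses placed the 9 loci among their like. It holds a second symbol for Ero1l (Ero1a) and for Ero1lb (Ero1b). In GENCODE release M21, 94 of the symbols were found, 44 had a lncRNA locus of the table within 10 kb, and 52 loci were found in all. Of the 43 loci beyond the 9, 21 passed the filter. With stearic acid 2 of the 21 rose and 0 fell, with palmitic acid 2 rose and 0 fell, and between the acids 0 were called, beside 11.8%, 5.56% and 0.0987% of all loci tested. At an unadjusted p under 0.05 there were 3, 3 and 1, beside 25.1%, 19.7% and 7.37%. Called with both acids were XLOC_003368 near Edem3 and XLOC_124208 near Creb3l2. The other 22 loci, among them those beside Ddit3, Eif2ak3 and Ppp1r15a, had at most 9.75 CPM in a library, 2 of them at 0 throughout, and were not tested.

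XLOC_003368 (chr1:151748949-151755018, minus strand), listed as 2810414N06Rik, starts 353 bases from the start of Edem3, a factor that marks glycoproteins for ER-associated degradation, and runs away from it. It had 40.4, 40.9 and 42.8 CPM in stearic acid libraries, 39.9, 43.9 and 51.0 CPM in palmitic acid libraries, and 17.4, 11.2 and 21.5 CPM in control libraries. Both acids lay wholly above control and overlapped each other. It rose by a log2 difference of 1.29 with stearic acid (SE 0.24, fold 2.44, adjusted p = 0.000666 in edgeR) and of 1.40 with palmitic acid (SE 0.23, fold 2.65, adjusted p = 0.00032 in edgeR). The acids differed by -0.12 (interval -0.56 to 0.33, adjusted p = 0.942 in edgeR).

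XLOC_124208 (chr6:37442494-37448581, plus strand) starts 348 bases from the start of Creb3l2, an ER-anchored transcription factor, and also runs away from it. It had 119, 109 and 137 CPM in stearic acid libraries, 89.4, 111 and 120.3 CPM in palmitic acid libraries, and 70.1, 58.5 and 76.2 CPM in control libraries. Both acids again lay wholly above control and overlapped each other. It rose by 0.83 on the log2 scale with stearic acid (SE 0.17, fold 1.78, adjusted p = 0.00153 in edgeR) and by 0.64 with palmitic acid (SE 0.17, fold 1.56, adjusted p = 0.0201 in edgeR). The palmitic acid call was lost without control replicate 1, control replicate 2, palmitic acid replicate 2 or palmitic acid replicate 3 (adjusted p of 0.0644, 0.126, 0.0896 and 0.106 in edgeR), and also with libraries scaled by size alone (log2 difference 0.57, adjusted p = 0.0709). The windows of the paired coding genes are shown because the coding gene and the lncRNA locus start close together there, with capitals for motif matches as above. That of Edem3 held CCACG at 2 positions and that of Creb3l2 held none of the motifs.
Edem3 chr1:151755124-151755423, plus strand: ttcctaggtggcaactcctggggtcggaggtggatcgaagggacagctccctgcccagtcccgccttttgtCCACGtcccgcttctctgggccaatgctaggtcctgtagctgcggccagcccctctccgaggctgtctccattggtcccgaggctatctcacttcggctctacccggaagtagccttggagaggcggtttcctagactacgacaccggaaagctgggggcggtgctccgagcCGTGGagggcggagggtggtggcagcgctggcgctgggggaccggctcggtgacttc
Creb3l2 chr6:37442099-37442398, minus strand: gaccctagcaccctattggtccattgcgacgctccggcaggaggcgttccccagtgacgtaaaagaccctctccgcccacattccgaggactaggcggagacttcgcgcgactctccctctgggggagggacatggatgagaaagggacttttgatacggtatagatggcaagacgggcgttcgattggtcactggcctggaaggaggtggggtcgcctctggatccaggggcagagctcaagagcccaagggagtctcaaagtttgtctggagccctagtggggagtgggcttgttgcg

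XLOC_046396, near the stress kinase gene Mapk8, had 16.2, 20.8 and 15.6 CPM in stearic acid libraries, 11.0, 7.25 and 8.07 CPM in palmitic acid libraries and 12.1, 2.92 and 7.43 CPM in control libraries. It missed the threshold with stearic acid (log2 difference 1.21, SE 0.41, adjusted p = 0.0571 in edgeR). It passed without control replicate 1 (1.69, adjusted p = 0.021 in edgeR), and did not pass with any other replicate left out. It was named after its values were seen.

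**Figure D4:**
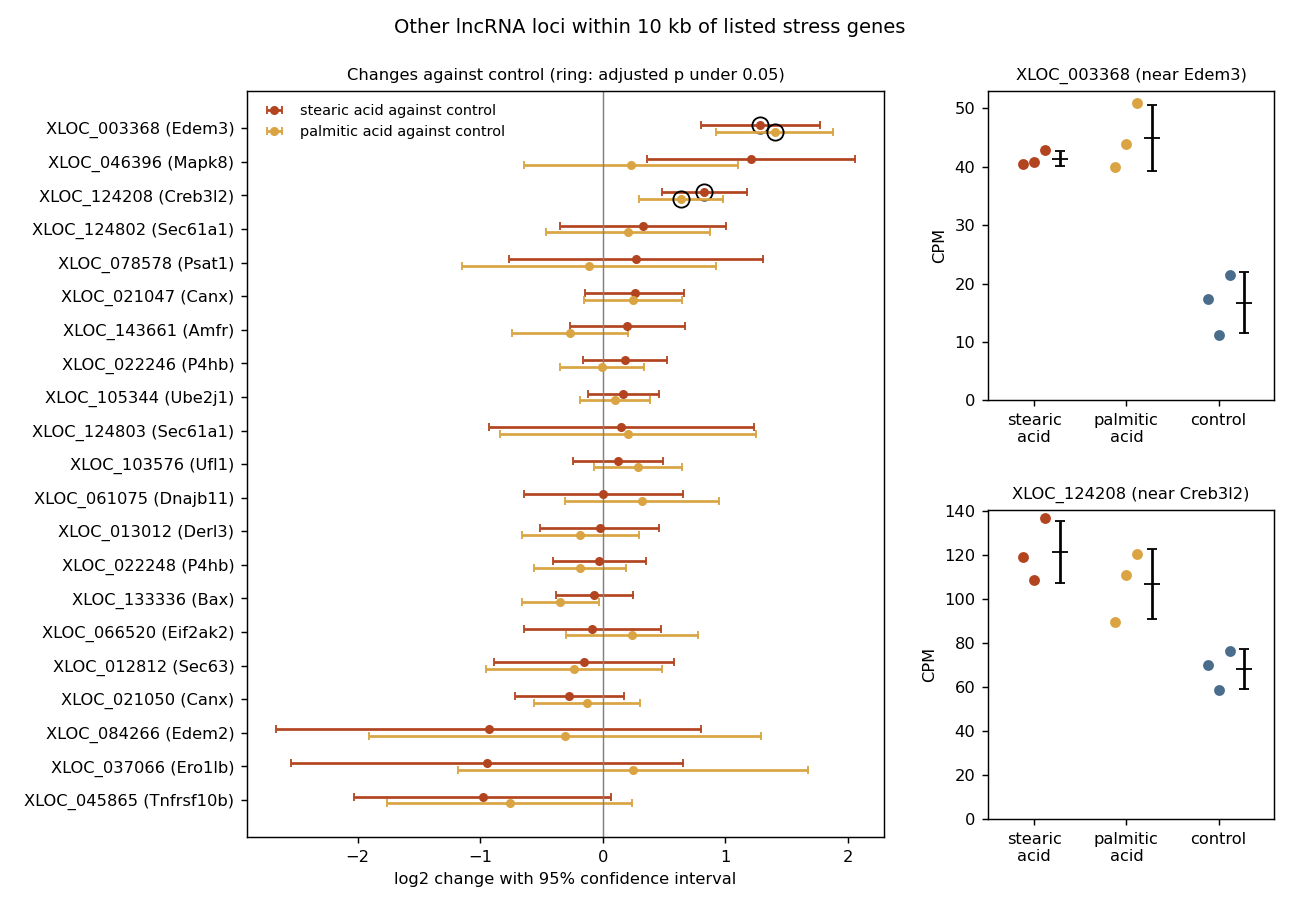
Left, log2 difference with 95% confidence interval for stearic acid and palmitic acid against control at the 21 other tested loci near listed stress genes, with rings where the adjusted p was under 0.05. Right, level in CPM of XLOC_003368 and XLOC_124208 in each library with the mean and SD of 3, where all stearic acid and palmitic acid points lie above the control points.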

How the data were processed

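β-TC6 RNA depleted of ribosomal RNA was sequenced in 9 libraries, grouped by their labels. Per the submitters' processing notes, the tools were bcl2fastq 2.17.1.14, Trimmomatic 0.30, HISAT2 2.0.1, HTSeq 0.6.1 and DESeq, with mm10 (how strand was set and what assembled the transcripts is not stated there). For each transcript, the deposited table gives an expected count (77.7% of all values whole, zeros included) and the authors' FPKM, which was used for levels only. The authors' deposited comparison tables hold log2 fold changes, p-values and adjusted p-values, and a deposited table of calls is coded per transcript; only membership was read from them.

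Expected counts were summed per locus, rounded, and tested in R 4.3.3 with edgeR 4.0.16: filterByExpr (at least 4.13 CPM in 3 libraries), TMM scaling, and a quasi-likelihood fit to all 9 libraries with 6 residual degrees of freedom. Tests were two-sided, with Benjamini-Hochberg adjustment over all loci tested, and CPM use TMM-scaled totals. DESeq2 1.42.0 was an alternative. Floors (3 counts) cover counting error only. The procedure was tested on simulated data. Neighbours are from GENCODE M21.

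Same-numbered libraries correlated in their deviations by -0.042 to 0.085, so no pairing by number was seen. The labels do not say whether they were handled together, and these values cannot exclude it. None of the 9 pairs within groups agreed within sampling noise (chi-square per degree of freedom at least 3.85).

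All 9 loci are named, and of other loci near listed genes those called. XLOC_046396 and the second loci near Sesn2 and Herpud1 were named besides, after their values were seen. Loci with a profile like that of a called member were to be named, and no member was called. The members, gene lists and motifs were chosen with earlier results of these data known.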

Additional observations from a re-analysis of the deposited data

How the results depend on the processing

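The number of the 9 loci and of their transcripts that were called stayed at 0 in all 3 comparisons under each alternative run: DESeq2 size factors in edgeR, library size alone, no filter on low counts, a replicate block, a fit without the most abundant transcript, rounding before summing (loci only), an adjusted p under 0.01, the DESeq2 Wald test, the compared groups alone, and each replicate left out in turn. Of 375 values of single loci under alternatives, 0 passed the threshold, the lowest adjusted p was 0.0614 in edgeR (XLOC_022034, stearic acid against control, without control replicate 1), and 16 changed sign. With only the compared groups in the fit, XLOC_084450 against control and XLOC_079291 with palmitic acid fell under the filter and gave no value.

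The sign changes were as follows. XLOC_144692 with stearic acid had a log2 difference of 0.012 with library size alone, 0.005 with the replicate block and 0.014 with the compared groups alone, and -0.14 to 0.11 with 1 replicate left out. XLOC_054582 with palmitic acid was -0.028 with library size alone and -0.10 to 0.15 with 1 replicate left out. With 1 replicate left out, the palmitic acid values ran from -0.16 to 0.092 for XLOC_013242 and from -0.31 to 0.76 for XLOC_084450, the stearic acid value from -0.45 to 0.95 for XLOC_083832, and the difference between the acids from -0.087 to 0.20 for XLOC_106359. The cause was not tested.

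The alternatives for the other 21 loci were chosen after seeing the data. With palmitic acid 1 of them in place of 2 was called with library size alone, 1 at an adjusted p under 0.01, and 1 to 2 with 1 replicate left out; XLOC_003368 was called in each. With stearic acid 2 to 3 were called, the third being XLOC_046396 with the replicate block (adjusted p = 0.0486 in edgeR) and without control replicate 1 (adjusted p = 0.021). The block changed no other call at the loci named here, and 3 of 9 libraries correlated best with one of their own number.

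Over all transcripts the block called 16 and 1 in place of 63 and 18 (stearic acid, palmitic acid). DESeq2 was run without the filter, on 11783 transcripts in place of 4426. It called 160, 78 and 10 of them (stearic acid, palmitic acid, between the acids) in place of 63, 18 and 0. Over loci it called 259, 144 and 4 in place of 358, 169 and 3. Depth limits the loci near Cebpb, Chac1 and Vldlr, which had 0 to 35 counts in a library.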
